A study of Mus musculus with 6 samples.

Results

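Mucins and glycocalyx proteins are represented here by 10 genes, chosen by name from the 17554 genes of the expression table: *Muc1*, *Muc4*, *Muc15*, *Muc16*, *Muc20*, *Muc5ac*, *Lgals3*, *Lgals7*, *Sdc1* and *Cd44*. Corneal epithelium of C57BL/6 mice at 2 months of age was profiled by bulk RNA-seq in 3 control samples, which the sample labels call WT, and 3 from *Krt14-Cre; Rela f/f* animals, called mutant below and Rela-/- in the labels. *Krt14-Cre* expresses a recombinase under the keratin 14 promoter, which removes the floxed part of *Rela*, the gene of the RelA subunit of the transcription factor NF-κB. The promoter is also active in the conjunctiva, the meibomian glands and the skin, whether the control mice carried *Krt14-Cre* is not given in the sources used here, and neither is the number of mice per sample, so p-values measure the spread between these samples. The comparison addresses how loss of RelA alters the transcripts of the corneal epithelium.

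The glycocalyx is the sugar-rich coat on the apical face of the ocular surface. Its transmembrane mucins are long, heavily O-glycosylated proteins that stand out from the membrane into the tear film, keep the surface wet and hinder the attachment of microbes and dyes, while gel-forming mucins are secreted by goblet cells of the conjunctiva. Galectins are lectins that bind galactose-bearing glycans and can cross-link mucins into a lattice. Syndecan 1 carries heparan sulfate chains, and CD44 is the main cell surface receptor for hyaluronan, so both link epithelial cells to the extracellular matrix.

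The bases just upstream of the start site are shown for 4 of the 10 genes, from RefSeq on GRCm38.p6, read 5′ to 3′ and ending at the base before the start. *Muc1* is shown as the gene that changed between the genotypes and *Muc4* as the most abundant mucin transcript, and *Lgals3* and *Sdc1* are shown because their windows hold a match to the NF-κB consensus. Capitals mark every match to the motifs searched. Windows of 250 bases were available for 8 of the 10 genes.
*Muc1*, chr3:89228806-89229055, plus strand: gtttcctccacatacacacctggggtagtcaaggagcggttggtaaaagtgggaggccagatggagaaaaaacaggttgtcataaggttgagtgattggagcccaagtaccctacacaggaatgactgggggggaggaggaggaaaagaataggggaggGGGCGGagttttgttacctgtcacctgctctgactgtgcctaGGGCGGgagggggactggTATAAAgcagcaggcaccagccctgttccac
*Muc4*, chr16:32735636-32735885, plus strand: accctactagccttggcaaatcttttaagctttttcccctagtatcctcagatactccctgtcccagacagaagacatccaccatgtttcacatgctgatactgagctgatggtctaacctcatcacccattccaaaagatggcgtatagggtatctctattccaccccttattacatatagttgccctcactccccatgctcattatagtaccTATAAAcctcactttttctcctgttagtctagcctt
*Lgals3*, chr14:47373610-47373859, plus strand: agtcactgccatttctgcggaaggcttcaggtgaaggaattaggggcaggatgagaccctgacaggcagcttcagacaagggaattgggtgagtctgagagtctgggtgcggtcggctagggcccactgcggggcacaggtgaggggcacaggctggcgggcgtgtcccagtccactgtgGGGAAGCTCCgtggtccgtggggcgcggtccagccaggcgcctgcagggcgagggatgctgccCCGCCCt
*Sdc1*, chr12:8771146-8771395, plus strand: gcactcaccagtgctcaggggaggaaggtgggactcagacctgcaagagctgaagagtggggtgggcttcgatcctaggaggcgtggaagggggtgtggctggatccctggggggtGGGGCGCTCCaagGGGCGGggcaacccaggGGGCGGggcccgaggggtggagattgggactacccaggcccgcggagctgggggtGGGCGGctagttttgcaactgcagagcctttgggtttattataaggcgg

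The motifs were searched on both strands, and none of the matches overlapped. The *Muc1* window holds a TATA box (TATAAA) that begins at position -31 from the start and GC boxes (GGGCGG) that begin at -91 and -49. The *Muc4* window holds a TATA box at -36 and no GC box, while *Lgals3* holds 1 GC box and *Sdc1* holds 3, both without a TATA box. TATAAA occurred in 12.4% of 32851 RefSeq promoters cut to the same length, and GGGCGG in 32.7%. A match to the NF-κB consensus, searched by its published form, was found once in *Lgals3*, at -70, and once in *Sdc1*, at -134, against 7.25% of all promoters. No match to it was found in these letters of *Muc1*, *Muc4*, *Muc16*, *Muc20*, *Lgals7* or *Cd44*. The *Lgals7* window lies inside the gene span given below, and the windows of *Muc16* and *Cd44* overlap theirs. Each window belongs to 1 annotated start, and other starts were not searched. The STAT motif TTCNNNGAA (7.02% of promoters) and the AP-1 motif TGANTCA (6.75%) had no match in any of the 8 windows. A match describes letters and does not show that a factor binds there.

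Total expected counts per sample ran from 19492942 to 19733834, so depth hardly differed between the samples. *Rela* fell from an FPKM (fragments scaled by transcript length and sequencing depth) of 34.9 ± 1.53 (SD, n = 3) in control samples to 5.39 ± 0.41 (SD, n = 3) in mutant samples, in the direction of the labels, and 230 to 270 counts of it remained in each mutant sample. *Krt12*, the keratin that defines corneal epithelium, had an FPKM of 17005 or more in every sample. In a principal component analysis the mutant sample 1 stood apart from the mutant samples 2 and 3 on the second component (24.1 against -9.5 and -20.6). The estimate for *Muc1* is therefore also given without the mutant sample 1. A gene passed the test at an adjusted p under 0.05 in the quasi-likelihood test of edgeR, adjusted by Benjamini-Hochberg over the 12667 genes with enough counts.

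One transmembrane mucin, *Muc1*, was higher in the mutant corneal epithelium, and no other member passed the test. Of the 10 members 8 had enough counts to be tested, and 1 of these 8 passed, where 13.2% of all 12667 tested genes did (7.82% higher and 5.42% lower). No member passed in the lower direction with edgeR, DESeq2 or limma, and none was lower at an unadjusted p under 0.05 with any of them. The other 7 tested members had log2 fold changes of at most 0.135 in size and edgeR adjusted p-values from 0.37 to 0.95. The median log2 fold change of the 8 tested members was 0.05, beside -0.003 over all tested genes. At the study's thresholds (fold change 2 or more, adjusted p up to 0.001), none of the 8 members was differentially expressed with edgeR, where 1.37% of all tested genes were (1.31% higher), and 1 was with DESeq2 (*Muc1*), where 2.61% of all tested genes were.

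*Muc1* (gene 17829, chr3:89229056-89233381 on the plus strand of GRCm38) encodes a transmembrane mucin whose cytoplasmic tail can be phosphorylated and takes part in signalling. Its FPKM was 14.8, 18.4 and 15.1 in control samples and 81.1, 37.5 and 48.2 in mutant samples. All 3 mutant samples were above all 3 control samples, and the mutant sample 1 was well above the other mutant samples. The mean rose from 16.1 ± 1.99 (SD, n = 3) to 55.6 ± 22.7 (SD, n = 3) FPKM. The log2 fold change was 1.79 (standard error 0.246, 95% interval 1.24 to 2.34), a 3.45-fold rise (2.35 to 5.06), with an edgeR adjusted p of 0.00153 and higher values in 3 of 3 mutant samples. An exact two-sided permutation test of the FPKM gave p = 0.1, the smallest that 3 samples against 3 allow. Because the samples are bulk tissue, more cells with *Muc1* mRNA and more *Muc1* mRNA per cell cannot be told apart.

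The mutant samples also differed more among themselves in *Muc1* than the control samples did, with a coefficient of variation of 40.8% against 12.3%. The mutant sample 1 had the highest level, and without it the log2 fold change was 1.40 (standard error 0.117, edgeR adjusted p = 6.15e-05). By mean FPKM among all genes of the table, *Muc1* moved from place 4049 in control samples to place 1173 in mutant samples. Each value rests on 654 to 804 counts in control samples and 1647 to 3548 counts in mutant samples. None of its 50-base windows occurs in transcripts of another gene in GENCODE.

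**Figure D1:**
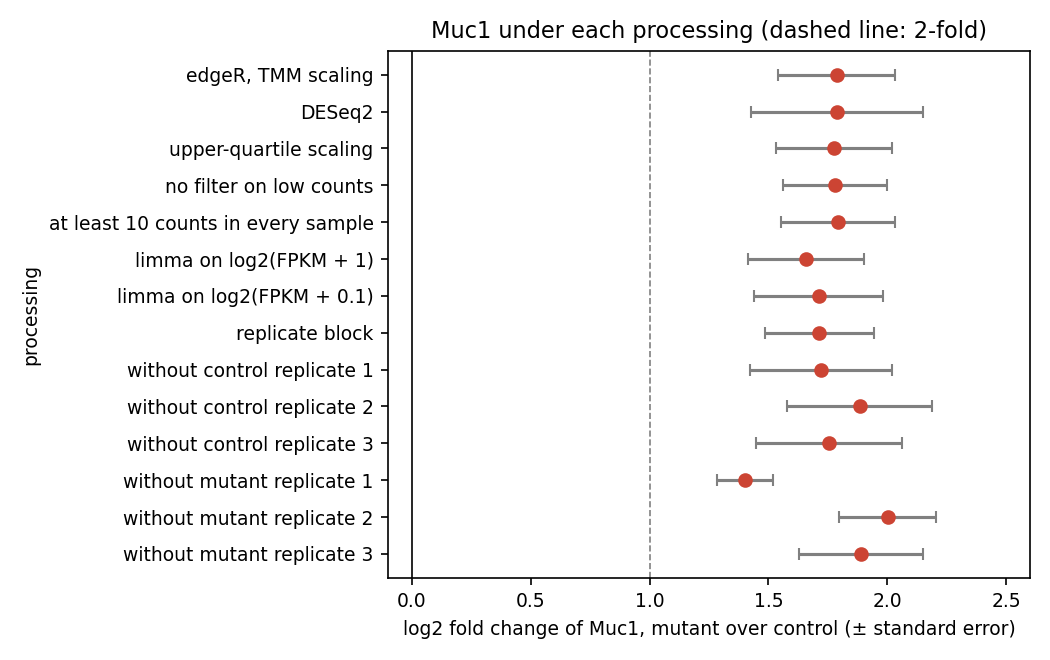
Log2 fold change of *Muc1* (x axis, mutant over control, ± standard error) under each way of processing the data (y axis), with a dashed line at a 2-fold rise. All 14 estimates lie to the right of that line, from 1.40 without the mutant sample 1 to 2.00 without the mutant sample 2.

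Genes near *Muc1* on chromosome 3 were read from the same fit, chosen after the values of *Muc1* were known. *Krtcap2* had a mean FPKM of 35.5 in the control and 41.5 in mutant samples (log2 fold change 0.23, edgeR adjusted p = 0.156). *Mtx1* was at 17.2 and 17.0 FPKM (log2 fold change -0.01, edgeR adjusted p = 0.954) and *Thbs3*, which encodes a thrombospondin, at 0.767 and 0.553 (-0.42, adjusted p = 0.306). *Trim46* had 3 to 15 counts per sample and was not tested. None of these 3 tested neighbours passed the test with edgeR, and 1, *Krtcap2*, had an unadjusted p under 0.05.

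The 2 genes whose levels followed *Muc1* most closely over the 6 samples, by the root mean square difference of log2 CPM (counts scaled to a common depth) after centring each gene on its mean, were *Ptk6* (0.174) and *Pthlh* (0.178). *Ptk6* encodes a non-receptor tyrosine kinase of epithelia, and its FPKM was 0.36, 0.39 and 0.35 in control samples and 1.53, 0.94 and 1.03 in mutant samples. *Pthlh* encodes parathyroid hormone-related protein, and its FPKM was 11.9, 15.7 and 15.4 in control samples and 58.9, 32.5 and 49.5 in mutant samples. Both were chosen for this likeness, so their change is given as a description.

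*Muc4* was by far the most abundant mucin transcript, and its level did not pass the test. *Muc4* (gene 140474, chr16:32735886-32782391, plus strand) encodes a large transmembrane mucin with EGF-like domains. Its FPKM was 969, 874 and 886 in control samples and 1119, 964 and 833 in mutant samples, so the mutant samples held both the highest and the lowest value. The means were 909.9 ± 51.7 and 972 ± 143 FPKM (SD, n = 3 each), and the log2 fold change was 0.09 (95% interval -0.15 to 0.34, edgeR adjusted p = 0.624). By mean FPKM it was gene 43 of the table in control samples and gene 47 in mutant samples.

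*Muc20* (gene 224116, chr16:32777419-32797435, minus strand) encodes a smaller transmembrane mucin and overlaps the end of *Muc4* on the other strand. Its FPKM was 177, 168 and 173 in control samples and 189, 195 and 159 in mutant samples, and the groups overlapped. The log2 fold change was 0.06 (95% interval -0.16 to 0.28, edgeR adjusted p = 0.734). The exons of the 2 genes share 627 bases, which is 5.33% of the *Muc4* exon bases and 15.6% of those of *Muc20*, and 482 windows of 50 bases occur in transcripts of both. The expected counts of *Muc4* and *Muc20* were fractional in each sample but summed to a whole number in 6 of 6 samples, for example 217773.39 and 10094.61 to 227868 in the control sample 1. Reads in the shared stretch were thus divided between the genes by estimation, and the split is uncertain for both, since no source used here says whether strand entered the counting.

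*Muc15* (gene 269328, chr2:110721494-110739537, plus strand) encodes another transmembrane mucin. Its FPKM was 80.7, 60.5 and 68.0 in control samples and 64.3, 66.4 and 63.6 in mutant samples. The 3 mutant values lay close together inside the range of the control values, and the log2 fold change was -0.11 (95% interval -0.34 to 0.12, edgeR adjusted p = 0.539). The gene shares 61 exon bases, 1.71% of its own, with *Ano3* on the other strand.

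The transmembrane mucin *Muc16* and the gel-forming mucin *Muc5ac* were at the edge of detection. *Muc16* (gene 73732, chr9:18495445-18674821, plus strand as deposited but minus strand in GENCODE) encodes the largest of these mucins, a carrier of the CA125 epitope. Whether this strand mismatch affected its counts was not tested. *Muc16* had 4, 1 and 2 counts in control samples and 7, 8 and 6 counts in mutant samples, an FPKM of at most 0.02. The groups did not overlap in counts, and the summed counts, 7 and 21, gave a ratio of 3.0 with an exact 95% interval of 1.23 to 8.35 that covers counting error only. Under a fit without the filter on low counts, the log2 fold change of *Muc16* was 1.53 (standard error 0.642, edgeR adjusted p = 0.176). *Muc5ac* (gene 17833, chr7:141788958-141819217, plus strand), the mucin of conjunctival goblet cells, had 0, 1 and 0 counts in control samples and 0, 1 and 0 counts in mutant samples. A count of 3, the limit that a count of 0 allows, corresponds here to 0.152 to 0.154 CPM, and a difference in *Muc5ac* was not detectable at this depth.

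**Figure D2:**
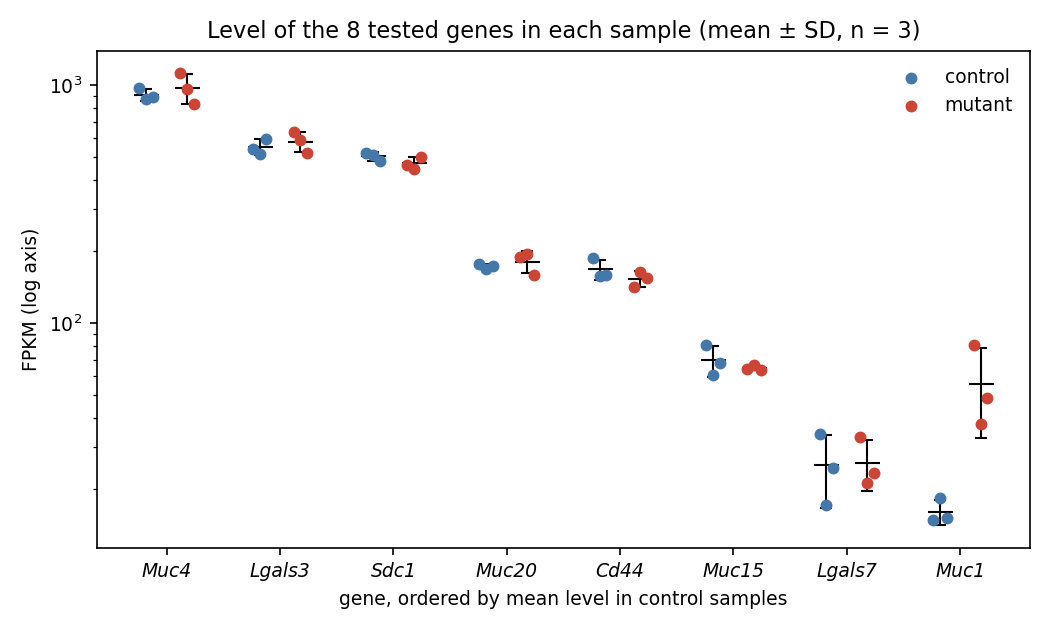
FPKM on a log axis (y) of the 8 tested genes (x, ordered by the mean of the control samples), with one point per sample (blue control, red mutant) and black marks for mean ± SD (n = 3). *Muc1* is the gene whose 3 mutant points, 37.5 to 81.1, lie above its 3 control points, 14.8 to 18.4, while the points of the other 7 genes overlap.

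Summed over the 6 member mucins, the FPKM was 1242, 1121 and 1142 in control samples and 1454, 1263 and 1104 in mutant samples. The groups overlapped, and the means, 1168 ± 64.2 and 1274 ± 175 (SD, n = 3 each), did not pass (exact two-sided permutation p = 0.5). Within the sum, *Muc1* took 1.19%, 1.64% and 1.32% in control samples and 5.58%, 2.97% and 4.37% in mutant samples. Its share was higher in 3 of 3 mutant samples (p = 0.1 in the exact permutation test, the smallest possible), while *Muc4* still took 75.4% to 77.0% of the sum in mutant samples and 77.6% to 78.1% in control samples. *Muc20* took 14.8% ± 0.482 in the control and 14.3% ± 1.21 in mutant samples, and *Muc15* 5.95% ± 0.552 and 5.15% ± 0.675 (SD, n = 3 each). For each unit of *Muc1* FPKM there were 65.4, 47.5 and 58.7 units of *Muc4* in control samples and 13.8, 25.7 and 17.3 in mutant samples. A share of FPKM weights genes by transcripts, not by reads, and with CPM in its place the *Muc1* share rose by 0.703 in place of 2.92 percentage points.

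The galectin members did not pass the test. *Lgals3* (gene 16854, chr14:47373860-47386167, plus strand) encodes galectin 3, which binds transmembrane mucins at the corneal surface. Its FPKM was 540, 514 and 595 in control samples and 632, 585 and 518 in mutant samples. The groups overlapped over most of their range, with a log2 fold change of 0.07 (95% interval -0.16 to 0.30, edgeR adjusted p = 0.708). *Lgals7* (gene 16858, chr7:28859587-28876331, plus strand) encodes galectin 7, a galectin of stratified epithelia. Its FPKM was 34.3, 17.2 and 24.5 in control samples and 33.1, 21.2 and 23.5 in mutant samples. The 95% interval of its log2 fold change, estimated at 0.03, ran from -0.51 to 0.58, the widest of the 8 tested members, so a change of up to about this size was not detectable here (edgeR adjusted p = 0.95).

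*Sdc1* and *Cd44* had lower mean levels in mutant samples, by less than the spread between samples could separate. *Sdc1* (gene 20969, chr12:8771396-8793716, plus strand) had an FPKM of 516, 509 and 477 in control samples and 460, 445 and 499 in mutant samples. The mutant sample 3 lay inside the control range, and the log2 fold change was -0.11 (95% interval -0.27 to 0.05, edgeR adjusted p = 0.37). *Cd44* (gene 12505, chr2:102811141-102901669, minus strand) had an FPKM of 187, 158 and 159 in control samples and 142, 164 and 155 in mutant samples. The highest mutant sample was above 2 of the 3 control samples, and the log2 fold change was -0.14 (95% interval -0.34 to 0.07, edgeR adjusted p = 0.384). The values are sums over the isoforms of each gene, so the splice variants of *Cd44* were not separated.

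**Figure D3:**
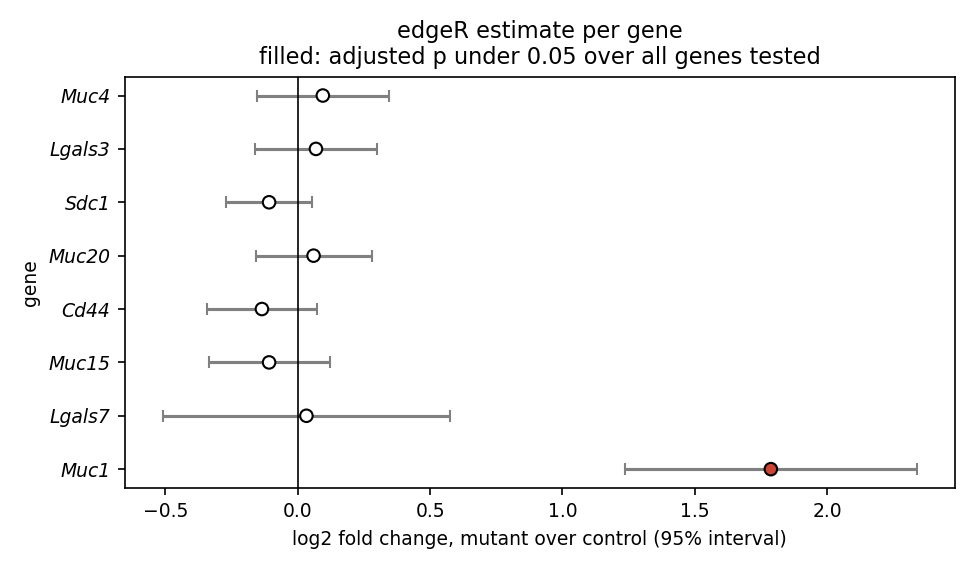
Log2 fold change, mutant over control (x axis), of the 8 tested genes (y axis) with 95% intervals from edgeR, filled where the adjusted p was under 0.05. The interval of *Muc1*, 1.24 to 2.34, lies to the right of zero, and the intervals of the other 7 genes include zero.

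In the control samples the levels per length ran, from high to low, *Muc4*, *Lgals3*, *Sdc1*, *Muc20*, *Cd44*, *Muc15*, *Lgals7* and *Muc1*, with *Muc16* and *Muc5ac* near zero. The sample ranges of *Lgals3* and *Sdc1*, of *Muc20* and *Cd44*, and of *Lgals7* and *Muc1* overlapped there, so these neighbours were not separated. In the mutant samples the order was the same down to *Muc15*, but *Muc1* followed above *Lgals7*. The lowest *Muc1* value, 37.5 FPKM, was above the highest *Lgals7* value, 33.1 FPKM, and its highest value reached past the *Muc15* range of 63.6 to 66.4 FPKM. Over 12666 tested genes matched by name to their FPKM values, 32.6% had groups that did not overlap (17.5% higher and 15.2% lower), beside 1 of the 8 tested members.

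Other genes of the same coat were read from 8 lists by role, 89 tested genes in all. Over 83 of them, which had 10 or more counts in every sample of both groups or in every sample of neither, 14 passed the test as higher and 5 as lower, together 22.9%, beside 12.5% of the 12144 tested genes that met the same condition. The other 6 genes reached the count filter through 1 group only, and those among them that passed, *Lgals1* and *Timp1*, are given by their counts and not as calls.

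Among 5 tested mucins and mucin-like genes outside the members, 1 was higher and none was lower with edgeR, DESeq2 or limma, while at an unadjusted p under 0.05 in edgeR 2 were higher and none was lower. The gene that passed was *Prg4*, which encodes lubricin, a boundary lubricant found at the ocular surface. Its FPKM rose from 0.293 ± 0.0379 to 1.83 ± 0.282 (SD, n = 3 each; edgeR adjusted p = 2.37e-05). The fold was 6.23 by FPKM but 10.8 by edgeR on counts, and the counts were 10.2 to 13.3 in the control and 112 to 145 in mutant samples. *Cd164*, which encodes a sialomucin and was the most abundant gene of the list, was at 205 and 231 FPKM (log2 fold change 0.17, edgeR adjusted p = 0.228).

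Of 21 enzymes of mucin-type O-glycosylation that met this condition, 2 were higher and 1 was lower, which is 14.3%. Both genes that rose add sialic acid to galactose. *St3gal1* rose from 2.64 ± 0.268 to 5.69 ± 0.373 FPKM (SD, n = 3 each; log2 fold change 1.10, edgeR adjusted p = 0.000107), and *St3gal4* from 0.70 ± 0.0964 to 1.90 ± 0.816 (1.27, adjusted p = 0.00188). *Galnt4*, one of the transferases that attach N-acetylgalactosamine to the mucin backbone, fell from 61.8 ± 2.94 to 47.6 ± 4.11 FPKM (log2 fold change -0.38, edgeR adjusted p = 0.016). The call of *Galnt4* was lost under 4 of the 13 alternatives to this fit, that of *St3gal4* under 1 and that of *St3gal1* under none. *St6galnac1*, the sialyltransferase with the highest level in the list, was at 287 and 284 FPKM (edgeR adjusted p = 0.924).

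Of 6 other galectin genes that met this condition 1 was higher, and none of the 7 tested was lower with edgeR, DESeq2 or limma or at an unadjusted p under 0.05. *Lgalsl*, which encodes a galectin-related protein and was the most abundant of the list, rose from 31.9 ± 2.30 to 48.7 ± 1.29 FPKM (log2 fold change 0.61, edgeR adjusted p = 0.000786). *Lgals1*, the gene of galectin 1, which is abundant in connective tissue cells, had 12, 8 and 8 counts in control samples and 48, 25 and 20 in mutant samples, so it reached the count filter through the mutant samples. *Lgals1* was highest in the mutant sample 1, as was the keratocyte marker sum given below, and the part of stromal cells in its level was not tested.

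Among 20 tested genes of other syndecans, glypicans and heparan sulfate enzymes, 4 were higher and 2 lower (30.0%). *Sdc4*, the most abundant syndecan gene of the list, rose from 144 ± 1.90 to 180 ± 3.41 FPKM (log2 fold change 0.32, edgeR adjusted p = 0.0118), where the member *Sdc1* did not pass. *Ext1*, which encodes a polymerase of the heparan sulfate chain, rose from 2.50 to 5.83 FPKM (1.22, edgeR adjusted p = 0.000865), *Hs3st1*, a 3-O-sulfotransferase gene, from 3.24 to 11.4 (1.75, adjusted p = 0.00137), and *Hs6st1*, a 6-O-sulfotransferase gene, from 53.5 to 64.6 (0.27, adjusted p = 0.0442). The call of *Hs6st1* was lost under 10 of the 13 alternatives, those of *Sdc4* and *Hs3st3b1* under 2 each, and those of *Ext1*, *Hs3st1* and *Gpc2* under none. The genes that fell were *Gpc2*, a glypican gene, from 15.8 to 9.54 FPKM (-0.74, edgeR adjusted p = 0.00512), and *Hs3st3b1*, another 3-O-sulfotransferase gene, from 12.2 to 8.80 (-0.47, adjusted p = 0.0119).

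Of 10 tested genes of hyaluronan synthesis, turnover and binding, 2 were higher and 1 lower (30.0%). *Hmmr*, which encodes a hyaluronan-binding protein that also acts on the mitotic spindle, rose from 4.83 to 6.65 FPKM (log2 fold change 0.46, edgeR adjusted p = 0.0209), and *Stab1*, a scavenger receptor gene of macrophages and vessels, from 0.287 to 0.503 (0.80, adjusted p = 0.0211). *Cemip2*, which encodes a cell surface hyaluronidase, fell from 8.04 to 6.54 FPKM (-0.29, edgeR adjusted p = 0.0412). The call of *Cemip2* was lost with both limma settings and under 9 of the 13 alternatives in all, that of *Stab1* under 5 and that of *Hmmr* under 3. The synthase genes *Has2* (0.130 and 0.107 FPKM) and *Has3* (0.193 and 0.267 FPKM) were near zero in both groups.

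Among the 9 linkers between these membrane proteins and the cytoskeleton, *Msn* was higher and none was lower at an adjusted p under 0.05 with edgeR, DESeq2 or limma, while 1 was lower at an unadjusted p under 0.05 in edgeR. *Msn* encodes moesin, which with ezrin and radixin ties CD44 and other membrane proteins to actin. Its FPKM was 0.14, 0.16 and 0.19 in control samples and 7.17, 3.44 and 4.19 in mutant samples, from 11 to 14 counts to 260 to 541 counts. The log2 fold change was 4.90 (95% interval 4.13 to 5.67, edgeR adjusted p = 3.55e-05). *Ezr*, the gene of ezrin and the most abundant linker, was at 310.5 ± 11.5 and 262.9 ± 30.2 FPKM (SD, n = 3 each; log2 fold change -0.24, edgeR adjusted p = 0.117), so that *Msn* remained far below *Ezr* per length in mutant samples too. Moesin is also a protein of leukocytes and vessel cells, whose marker levels are given below, and their part in its rise was not tested.

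Of 7 sheddase genes and inhibitors that met this condition, 3 were higher and 1 lower (57.1%). Proteases of this kind cut transmembrane mucins, CD44 and syndecan 1 from the cell surface. *Adam8* rose from 0.507 ± 0.223 to 3.17 ± 1.12 FPKM (SD, n = 3 each; log2 fold change 2.57, edgeR adjusted p = 0.00103), *Adam10* from 22.2 to 28.2 (0.34, adjusted p = 0.0218) and *Adam17* from 20.5 to 25.7 (0.33, adjusted p = 0.0292). *Adam15* fell from 74.1 to 62.9 FPKM (-0.24, edgeR adjusted p = 0.0448). The call of *Adam15* was lost under 10 of the 13 alternatives and those of *Adam10* and *Adam17* under 5 each, limma on log2(FPKM + 0.1) and each control sample left out among them, while that of *Adam8* was lost under none. *Timp1*, which encodes an inhibitor of metalloproteinases and not a protease, had 2, 0 and 1 counts in control samples and 92, 56 and 37 in mutant samples. It reached the count filter through the mutant samples alone, and no fold or p is given for it. *Mmp14*, a membrane-bound metalloproteinase gene and the most abundant of the list by the mean over all 6 samples, was at 72.7 and 66.03 FPKM (-0.14, edgeR adjusted p = 0.40).

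Of 7 tested genes of mucin trafficking and goblet cell secretion none passed the test with edgeR, DESeq2 or limma, and at an unadjusted p under 0.05 in edgeR 1 was higher and 1 lower. *Fcgbp*, which encodes a mucus protein bound to mucins, was the most abundant, at 15.8 ± 1.19 and 15.5 ± 1.99 FPKM (SD, n = 3 each; edgeR adjusted p = 0.892). *Spdef*, the gene of a goblet cell transcription factor, was at 0.327 and 0.283 FPKM, and *Agr2*, which encodes a chaperone of mucin folding, at 1.23 and 0.807.

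**Figure D4:**
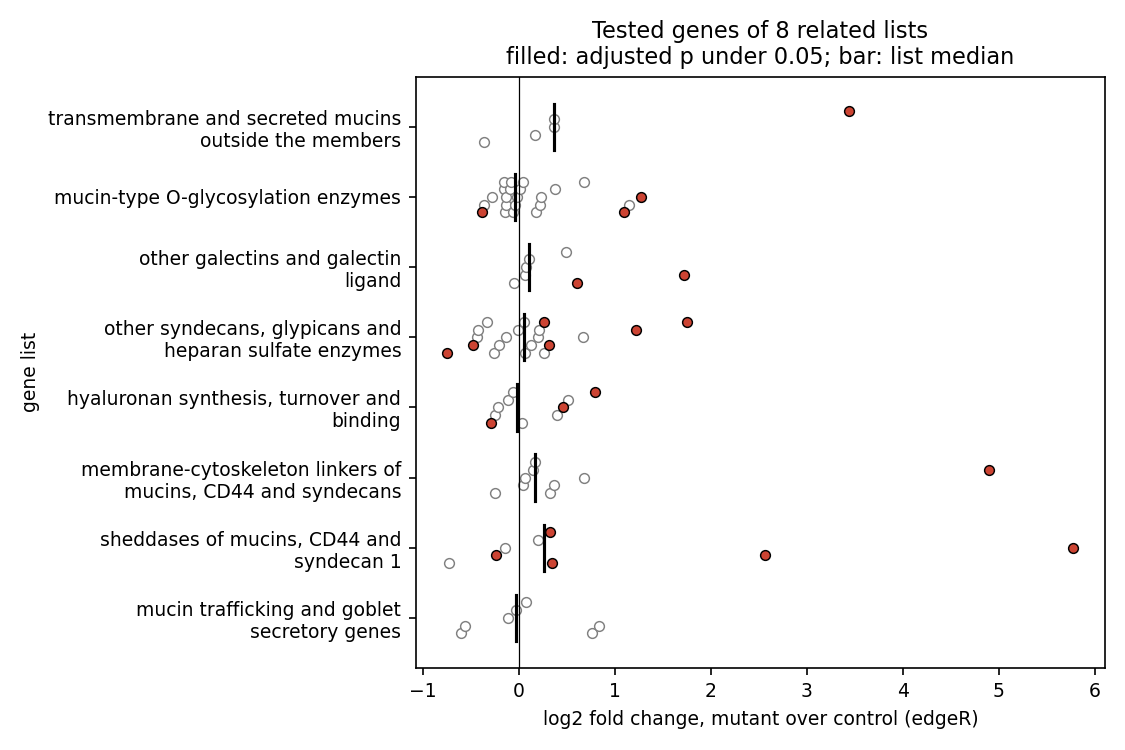
Log2 fold change, mutant over control (x axis), of the 89 tested genes of 8 lists (y axis), one point per gene, filled where the edgeR adjusted p was under 0.05, with a vertical bar at each list's median. The filled points include *Lgals1* and *Timp1*, which reached the count filter through the mutant samples alone and are not given as calls. The medians lie between -0.04 and 0.36, while single genes reach 4.90 (*Msn*) and beyond (*Timp1*, whose estimate rests on at most 2 counts in each control sample and is not a bound).

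Markers of other cell types were read in the same samples, as sums of FPKM over each list. The stromal keratocyte sum (6 genes) was 0.22, 0.14 and 0.09 in control samples and 3.08, 1.71 and 0.50 in mutant samples, with *Kera* at 3 counts or fewer in every sample. *Dcn* had 3, 2 and 1 counts in control samples and 66, 34 and 14 in mutant samples, and reached the count filter through the mutant samples alone. The keratocyte sum and *Muc1* were both highest in the mutant sample 1, though the mutant sample 2 had more of the keratocyte sum than the mutant sample 3 and less *Muc1*. The leukocyte sum (8 genes) was 83.5 to 93.4 in the control and 75.6 to 123 in mutant samples, with *Adgre1* at 3 counts or fewer. Most of it was *Itgam* (mean FPKM 65.3 and 70.05) and *Cd68* (20.2 and 23.6). *Ptprc* had 6, 6 and 1 counts in control samples and 14, 2 and 9 in mutant samples. *Lyz2*, which was not tested, had 0, 0 and 1 counts in control samples and 23.7, 13 and 3.79 in mutant samples. *Ly6g* went the other way, at a mean of 3.20 and 1.93 FPKM, and did not pass. The vessel sum (5 genes in the table) was 0.04 to 0.12 in the control and 0.19 to 0.26 in mutant samples, with *Cdh5* and *Kdr* at 3 counts or fewer. The goblet cell sum (5 genes in the table) was 16.4 to 18.4 and 15.1 to 18.8, with *Muc5ac* and *Foxa3* at 3 counts or fewer. Most of it was *Fcgbp* (mean FPKM 15.8 and 15.5), while *Agr2* (1.23 and 0.807) and *Spdef* (0.327 and 0.283) were low in both groups. The conjunctival keratin sum (6 genes) was 1398 to 1621 and 1099 to 1219, with *Krt13* and *Krt8* lower. Most of it was *Krt13* (mean FPKM 1329 and 1004). The call of *Krt13* was lost under 3 of the 13 alternatives and that of *Krt8* under none. *Krt4* was lower in mutant samples without passing, and the groups overlapped for *Krt7* and *Krt19*. *Krt18* went the other way, with 7, 14 and 8 counts in control samples and 18, 18 and 43 in mutant samples. The epidermal sum (6 genes) was 8.90 to 12.5 and 13.9 to 17.9, with *Ivl* higher (mean FPKM 4.74 and 9.98) and *Krt2* at 3 counts or fewer. The call of *Ivl* was lost under 2 of the 13 alternatives. The epidermal keratins *Krt1* (2.55 and 2.39) and *Krt10* (3.70 and 3.18) did not pass, and *Lor* and *Flg* were not tested. The corneal epithelial sum (10 genes) was 47480 to 51630 in the control and 43690 to 47250 in mutant samples, without overlap. Of these 10 markers, *Krt14* was higher and *Krt15* and *Aldh3a1* were lower, the last 2 calls being lost under 7 and 11 of the 13 alternatives. *Krt14* rose from a mean of 178 to 1753 FPKM (log2 fold change 3.32, edgeR adjusted p = 1.06e-05), a call lost under none of them. By staining, a measure of protein, the paper found K14 unaffected in mutant mice that it calls young. It gives no exact age for that staining, which may differ from the 2 months of these samples. The part of these cell types in the levels of *Muc1* and the other members was not tested.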

How the data were processed

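RNA of the corneal epithelium of 6 samples was measured by bulk RNA-seq, with groups taken from the labels. The authors filtered single-end reads of 50 bases with SOAPnuke, aligned them with Bowtie2 (2.2.5) and made the deposited expected counts per gene with RSEM (1.2.12), which divides a read that matches several genes among them. The authors also deposited FPKM values, scaled by transcript length and sample total. The labels name an Illumina kit and the mm9 build, the paper names rRNA removal and a BGISEQ-500 instrument, and the coordinates in the table are those of GRCm38. The deposited log2 fold changes, p-values and q-values hold the authors' own DEGseq comparison and were not used, nor were the deposited averages.

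Expected counts were rounded and tested with edgeR 4.0.16 in R 4.3.3 (TMM scaling, filterByExpr at its defaults of 10 counts and 15 in total, quasi-likelihood test of genotype). P-values were adjusted by Benjamini-Hochberg across every tested gene. Standard errors were taken as the absolute log2 fold change divided by the root of F. Alternatives were DESeq2 1.42.0, limma 3.58.1 on log2(FPKM + 1) and log2(FPKM + 0.1), no filter, a filter of 10 counts in every sample, upper-quartile scaling, a replicate block, each sample left out, and CPM for the mucin shares. The code was tested on simulated data.

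The members and the gene lists were chosen with earlier results of these data known. Named are every member, up to 3 genes per list and direction with the smallest adjusted p under 0.05, each list's most abundant gene, *Rela*, *Krt12* and the 2 genes most like a called member. *Has2*, *Has3*, *Spdef*, *Agr2*, *Dcn* and the neighbours of *Muc1* were named after their values were seen, as were the fractional counts of *Muc4* and *Muc20*. Shared bases and windows were counted in GENCODE transcripts of GRCm38. The table gives *Muc16* the plus strand where GENCODE gives the minus strand. Leaving genes that reached the filter through 1 group out of the list counts was decided after the data were seen. Some genes covered by the naming rule are not reported here.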

Additional observations from a re-analysis of the deposited data

How the results depend on the processing

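*Muc1* was higher and past an adjusted p of 0.05 under each of the 13 alternatives, with log2 fold changes from 1.40 to 2.00 and adjusted p-values from 1.66e-05 to 0.0138. The other 7 tested members passed under none of them, while *Muc4* and *Lgals3* changed sign under 1 alternative each and *Lgals7* under 2. The number of members at the study's thresholds, 0, was 1 with DESeq2 and 1 without a filter, and 0 to 1 with a sample left out (1 without the mutant sample 1 and 1 without the mutant sample 2). Genes past an adjusted p of 0.05, 1678, ranged from 857 (without the control sample 2) to 1869 with a sample left out, and numbered 999 without the control sample 3. All tested genes of the related lists past it, 21, numbered 25 with DESeq2, 22 without a filter and 14 with limma on log2(FPKM + 0.1), ranged from 11 (without the control sample 2) to 21 with a sample left out, and numbered 13 without the control sample 1 and 13 without the mutant sample 2. Fewer samples entered these fits. The difference in the *Muc1* share of the mucin sum, 2.92 percentage points by FPKM, was 0.703 by CPM, which weights *Muc4* by its length.

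Samples with the same replicate number did not deviate together (correlations 0.019, 0.048 and -0.046), so the numbers were not taken to pair the mice. With the replicate block the log2 fold change of *Muc1* was 1.72 (edgeR adjusted p = 0.00271), 1419 genes passed, and the members' calls were as without it. Over all genes the median log2 fold change stayed within 0.014 of zero under every setting. *Muc16* and *Muc5ac* had at most 8 counts per sample and were not tested with the filter. For *Muc16*, whether the strand mismatch with GENCODE affected the counts was not tested.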
